A study of Mus musculus with 2 samples.

Results

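The Arp2/3 complex, the cytoplasmic actins and the beta-thymosins form the machinery that builds, feeds and restrains branched actin filaments. The genes described are Arpc1a, Arpc1b, Arpc2, Arpc3, Arpc4 and Arpc5, which encode subunits of the complex, Actb and Actg1, which encode cytoplasmic actin, and Tmsb4x and Tmsb10, which encode thymosins. They were chosen by name, and 10 of 10 were found among the 15366 genes listed for both libraries. Droplet single-cell RNA-seq (10x v2 chemistry, which counts transcript ends once per molecular identifier, or UMI) had been run on male germ cells of CD1 mouse embryos at E13.5 and at E12.5, with 1 library per stage. Both groups carried the Oct4-GFP reporter of Pou5f1 and were gated on it by FACS, and neither was treated. The sources used here do not give how many embryos were pooled. The reporter reads the Pou5f1 regulatory region, so cells without it were gated against in both libraries.

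The Arp2/3 complex binds the side of an existing actin filament and starts a new one as a branch, once an activator of the WASP and WAVE family has switched it on. Some of its subunits have paralogs, and in work on human subunits complexes built with ARPC1B or ARPC5L promoted actin assembly more strongly than those with ARPC1A or ARPC5. Beta-thymosins bind actin monomers and keep them from joining filaments. Mouse germ cells migrate to the gonad before these stages, and in the fetal testis they become enclosed in cords and enter mitotic arrest.

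Germ-like cells were 2554 of 2670 kept barcodes in the E13.5 library and 2498 of 2621 in the E12.5 library. All 12 germ markers on the list stood at 10 CPM or more in both libraries (UMIs per 1e6 UMIs, over the sum of germ-like cells). The same markers served to name the germ-like clusters, and Pou5f1 is among them, so their levels are no independent check of the label. Summed germ-like cells held 58596390 UMIs at E13.5 and 59673637 at E12.5, with median depths of 21837 and 23481 UMIs per cell. Markers of Sertoli cells took 12.7 CPM in either library, and those of macrophages 0.580 CPM at E13.5 and 1.64 CPM at E12.5, with 5 and 1 of 7 at 0. Markers of red blood cells took 23.1 CPM at E13.5, with 0 of 8 at 0, and 0.285 CPM at E12.5, with 5 of 8 at 0. Markers counted as at 0 include those not listed for a library, as were these 5 and the 5 macrophage markers at E13.5. Each listed gene had UMIs in at least 3 barcodes, so an unlisted marker need not be a true 0. Each stage has a single library and thus no replicates, so no test was made and a difference of stage cannot be told apart from one of library. Intervals are 95% intervals and cover counting error only.

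The paralogous Arpc1 subunits exchanged places as the more abundant transcript of their pair. Arpc1b had 51.5 CPM in the E13.5 library and 231 CPM in the E12.5 library, from 3019 and 13767 UMIs, and was 4.48-fold lower at E13.5 (4.30 to 4.66). Arpc1a, its neighbour in the genome, had 122 CPM at E13.5 and 95.2 CPM at E12.5, a ratio of 1.28 (1.24 to 1.33). Both genes encode the WD-repeat subunit that holds the same place in the complex. Arpc1b therefore made up 29.7% of the pair's UMIs at E13.5 (28.8 to 30.6%) and 70.8% at E12.5 (70.2 to 71.4%), a difference of -41.1 percentage points (-42.2 to -40.0). The more abundant transcript of the pair was Arpc1a at E13.5, by 2.37 to 1, and Arpc1b at E12.5, by 2.42 to 1. The excess of Arpc1a at E13.5 was smaller than the shortfall of Arpc1b, and the pair together had 174 CPM at E13.5 and 326 CPM at E12.5. Each UMI counts 1 transcript end whatever the transcript's length, but capture can differ between genes, so the shares serve to compare the libraries.

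**Figure D1:**
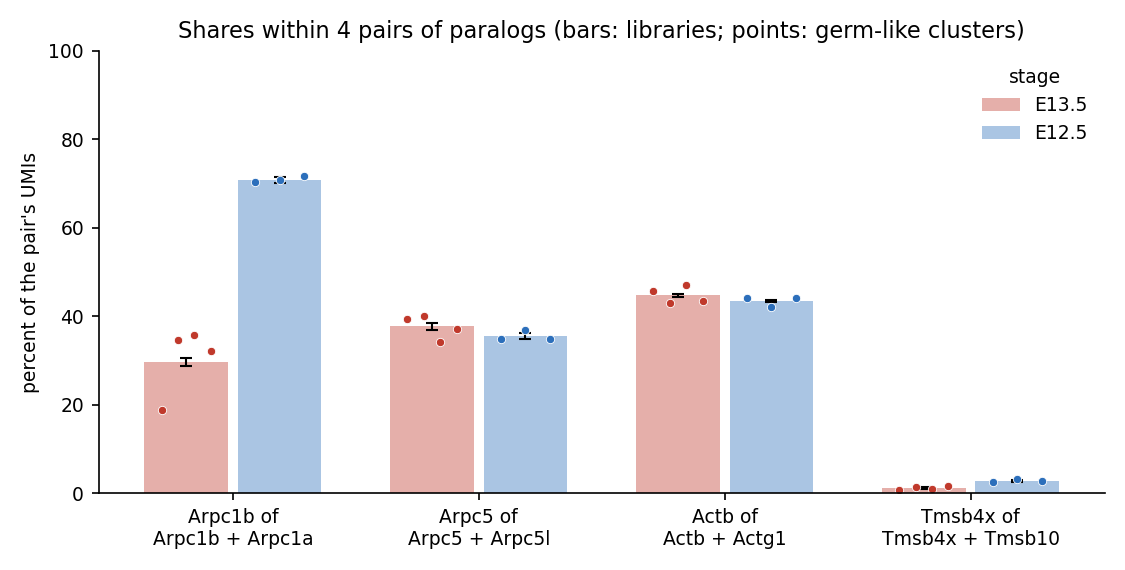
Percent of a pair's UMIs that belong to the first-named gene, for 4 pairs of paralogs, with E13.5 left of E12.5. Bars are libraries with 95% counting intervals, and points are germ-like clusters of at least 50 cells. Arpc1b holds 29.7% of its pair at E13.5 and 70.8% at E12.5, and the bars of the other pairs lie within 2.24 percentage points of each other.

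In GRCm38, Arpc1a lies at chr5:145083830-145108761 and Arpc1b at chr5:145114215-145130705, both on the plus strand, in tandem and 5453 bases apart. The 200 bases that end 51 bases before each RefSeq start (GRCm38.p6) are shown because the tandem genes differed in opposite directions. Capitals mark GGGCGG on either strand (CCGCCC on the strand printed), the core of the box bound by Sp family factors.
Arpc1a, chr5:145083619-145083818, plus strand: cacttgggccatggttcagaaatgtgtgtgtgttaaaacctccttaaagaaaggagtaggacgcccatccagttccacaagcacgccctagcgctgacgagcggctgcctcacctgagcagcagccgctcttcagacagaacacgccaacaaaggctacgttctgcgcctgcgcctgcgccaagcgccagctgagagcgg
Arpc1b, chr5:145114006-145114205, plus strand: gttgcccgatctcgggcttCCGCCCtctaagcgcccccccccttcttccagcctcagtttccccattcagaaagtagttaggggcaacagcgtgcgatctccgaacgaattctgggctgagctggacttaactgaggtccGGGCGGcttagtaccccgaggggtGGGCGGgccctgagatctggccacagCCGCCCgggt
The Arpc1b window held 4 matches and the Arpc1a window 0, and neither held a match to CCAAT, to TATAAA or to a CArG box, the site of serum response factor. Of 32851 promoter windows of the same length, searched on both strands, 24.6% held GGGCGG, 28.4% CCAAT, 9.14% TATAAA and 1.16% a CArG box. The Arpc1a window held 13 CpG and the Arpc1b window 14, against a median of 4 over all windows. A match describes the letters of the window and is not a binding site.

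The difference can also be described cell by cell, from the same UMIs as the sums. To set cells side by side at equal depth, 2323 germ-like cells at E13.5 and 2325 at E12.5 were thinned to 14500 UMIs each. Arpc1b was then above Arpc1a in 15.1% of cells at E13.5 (13.6 to 16.6%) and in 72.9% at E12.5 (71.0 to 74.7%), and Arpc1a was above Arpc1b in 61.2% and 13.0%. A UMI of Arpc1b was found in 49.8% of cells at E13.5 and in 95.3% at E12.5 (62.1% and 97.8% before thinning), whereas for Arpc1a the shares were 82.5% and 74.9%. Both transcripts were found together in 41.1% of cells at E13.5 and 71.5% at E12.5, so most cells at E12.5 held both. The median cell had 0 Arpc1b UMIs at E13.5 and 3 at E12.5. The variance of Arpc1b counts over cells was 1.23 times the mean at E13.5 and 1.25 at E12.5. At such low counts this measure shows little of any variation between cells, and the Arpc1b level was 34.4 to 63.0 CPM across E13.5 clusters.

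**Figure D2:**
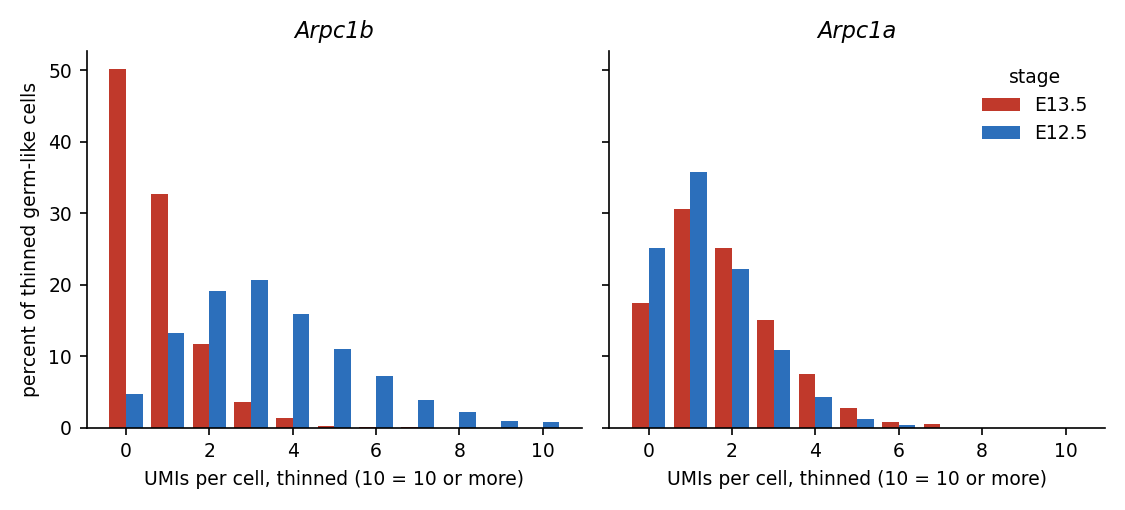
Percent of germ-like cells (y) with each number of UMIs after thinning to 14500 UMIs (x), for Arpc1b on the left and Arpc1a on the right, with E13.5 bars left of E12.5 bars. Arpc1b is at 0 in 50.2% of cells at E13.5 and in 4.73% at E12.5, while the Arpc1a distributions largely overlap.

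The lower share of Arpc1b was present in every germ-like cluster of the E13.5 library with at least 50 cells, and it varied among them. It was 18.8% in the cluster of 826 cells led by Nanos2, Egr4 and Ptgr1, and 32.2 to 35.7% in the other 3. In the 3 such clusters at E12.5 it was 70.4 to 71.6%. Clusters were made from the same counts, with Arpc1b, Actb, Tmsb4x and Tmsb10 among the 2000 variable genes, so these values are a description. Nanos2 encodes an RNA-binding protein of the male germ cell pathway. The 625 thinned E13.5 cells with a Nanos2 UMI had an Arpc1b share of 21.1% (19.5 to 22.8%), with 35.2 CPM Arpc1b and 131 CPM Arpc1a. The 1698 without a Nanos2 UMI had a share of 32.3% (31.2 to 33.4%), with 56.6 CPM Arpc1b and 119 CPM Arpc1a. E13.5 cells with a UMI of Mki67, a marker of cycling cells, had a share of 32.9%, against 24.2% without, and at E12.5 the shares were 70.9% with and 70.2% without. Both splits were chosen after the cluster values were seen. Depth moved the share little: in 4 bins of cells by UMI number it was 28.0 to 31.0% at E13.5 and 69.6 to 71.5% at E12.5.

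Over the 7 sums of cluster and library, the genes most like Arpc1b in log2(CPM + 1) were Vamp8, Mettl23, Sparc, Rhox5 and Ifitm3, out of 2883 other genes that reached 50 CPM. Their Pearson r was 0.996 to 0.999, and all 5 were lower at E13.5, with Vamp8 at 6.89 CPM at E13.5 and 52.3 CPM at E12.5. Those most like Arpc1a were Rpl4, Chchd3, Trappc6b, Emc10 and Tle1, with r of 0.972 to 0.992. The sums share 2 libraries, so r includes the difference between them.

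The other Arp2/3 subunits among the 10 genes were close between the libraries, except Arpc4. Arpc2 and Arpc4 encode the pair of subunits at the centre of the complex, which contacts the older filament. Arpc2 had 308 CPM at E13.5 and 329 CPM at E12.5, a log2 ratio of -0.10, whereas Arpc4 had 39.0 CPM at E13.5 and 67.7 CPM at E12.5 and was 1.74-fold lower (1.65 to 1.83). After thinning, a UMI of Arpc4 was found in 44.0% of cells at E13.5 and in 62.5% at E12.5. Arpc3, which encodes a small peripheral subunit, had 191 CPM at E13.5 and 202 CPM at E12.5. Arpc5, a subunit with the paralog Arpc5l, had 96.0 CPM at E13.5 and 98.9 CPM at E12.5, and its interval for the ratio (0.936 to 1.01) includes 1. Its share of Arpc5 and Arpc5l UMIs was 37.7% at E13.5 and 35.5% at E12.5, a difference of 2.24 percentage points (1.17 to 3.30). The balance of the Arpc5 pair was thus nearly the same in both libraries, whereas that of the Arpc1 pair was turned round. The 6 Arpc genes summed to 807 CPM at E13.5 and 1023 CPM at E12.5. Without Arpc1a and Arpc1b the sums were 633 and 697 CPM, a ratio of 0.909.

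**Figure D3:**
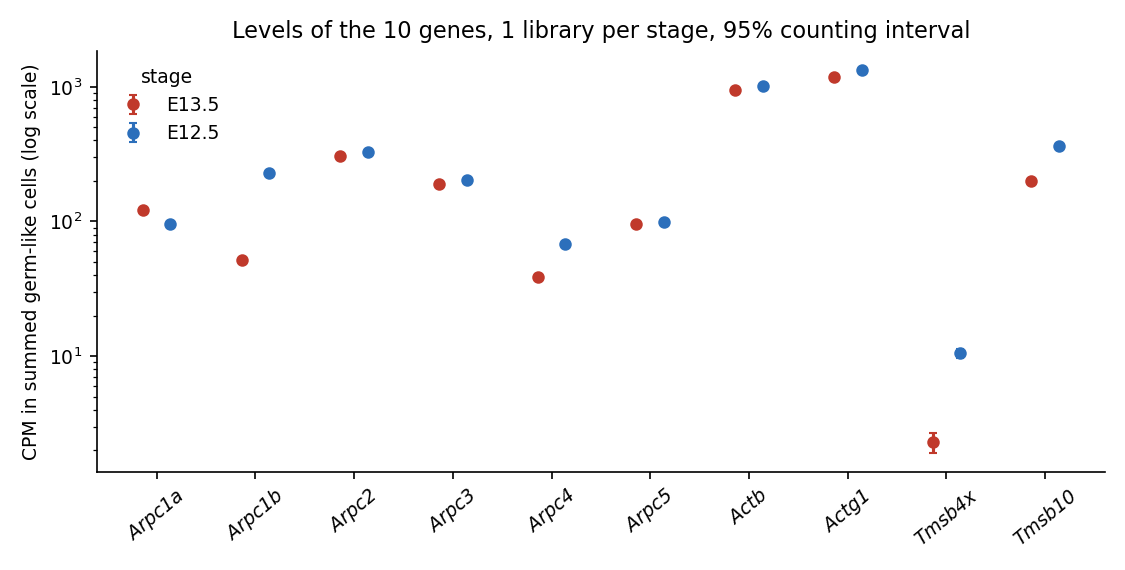
Level of each of the 10 genes in summed germ-like cells (y, CPM on a log scale), with the E13.5 library left of the E12.5 library and 95% counting intervals. The widest gaps are those of Arpc1b (51.5 CPM at E13.5, 231 CPM at E12.5) and Tmsb4x (2.29 CPM at E13.5, 10.5 CPM at E12.5).

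The cytoplasmic actins were the most abundant of the 10 and differed little. Actb had 953 CPM in the E13.5 library and 1021 CPM in the E12.5 library, a log2 ratio of -0.10. Actg1, which encodes the gamma isoform, had 1179 CPM at E13.5 and 1326 CPM at E12.5, a log2 ratio of -0.17. Actg1 was thus above Actb at both stages, and Actb made up 44.7% of the pair's UMIs at E13.5 and 43.5% at E12.5, a difference of 1.18 percentage points (0.803 to 1.56). All thinned cells of both libraries had UMIs of both genes, and Actg1 was above Actb in 67.1% of cells at E13.5 and in 71.1% at E12.5. As a multiple of the mean, the variance of actin counts over cells was above that of the other 8 genes. It was 2.64 for Actb and 2.56 for Actg1 at E13.5, and 2.49 and 2.24 at E12.5. The others had 1.01 to 1.49 over both libraries. For a given relative spread this multiple grows with the mean, which at E13.5 was 13.7 UMIs for Actb and 4.50 for Arpc2. It therefore does not rank the genes by relative spread. The actins also varied together over thinned cells, with a Pearson r of 0.382 at E13.5 and 0.258 at E12.5, the highest of 45 pairs of the 10 genes, whose median r was 0.00953 and 0.0194. These cells share a library, and low counts hold r near 0 for the scarcer genes, so these r are descriptions. Within the E13.5 library the actins were lowest in the cluster led by Nanos2, with 778 CPM Actb and 921 CPM Actg1, against 983 to 1066 CPM and 1109 to 1418 CPM in the other 3 clusters. The Actb level in the 3 E12.5 clusters was 1017 to 1028 CPM. No other actin on the lists (Acta1, Acta2 and Actc1) reached 10 CPM in a library.

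Actg1 lies at chr11:120345690-120348542 on the minus strand and Actb at chr5:142903115-142906754, also on the minus strand. The Actg1 window is shown because Actg1 was the most abundant of the 10 genes and its window holds the CArG box known from actin promoters. Capitals mark GGGCGG and that box.
Actg1, chr11:120348546-120348745, minus strand: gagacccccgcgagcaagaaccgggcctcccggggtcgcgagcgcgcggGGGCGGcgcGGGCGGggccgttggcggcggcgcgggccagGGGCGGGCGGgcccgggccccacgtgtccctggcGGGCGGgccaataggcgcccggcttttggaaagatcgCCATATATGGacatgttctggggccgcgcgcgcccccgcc
It held 1 CArG box 90 bases before the start, 5 GGGCGG of which 2 overlap, 1 CCAAT and 32 CpG. Among the members with a window, Arpc4 also held a CArG box.

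**Figure D4:**
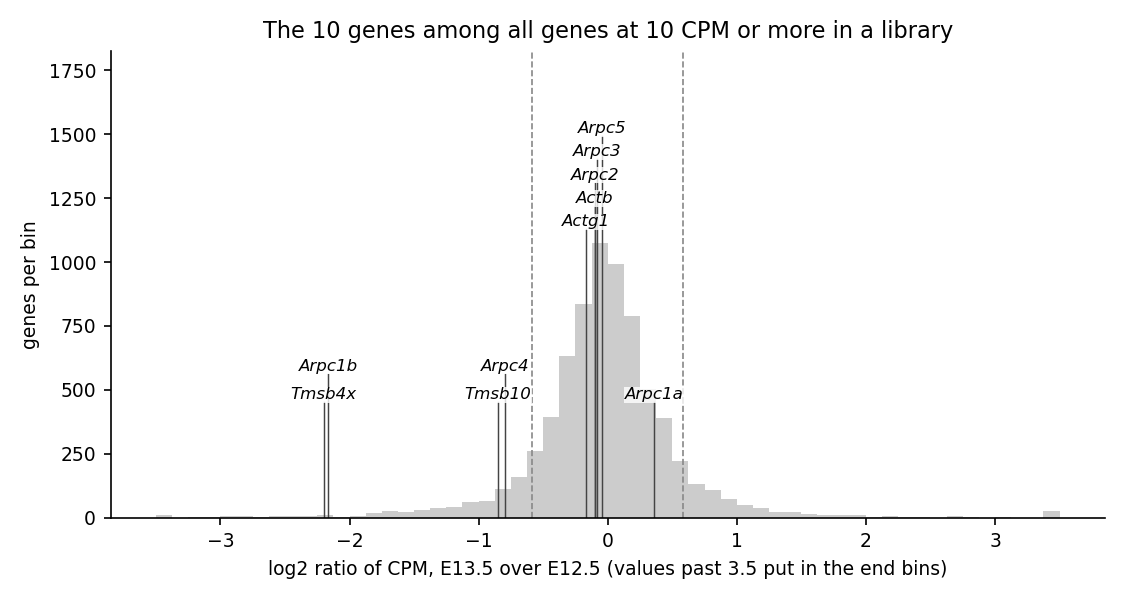
Number of genes (y) by log2 ratio of CPM, E13.5 over E12.5 (x), for 7309 genes that reached 10 CPM, with lines at the 10 genes and dashed lines at 1.5-fold. Arpc1b and Tmsb4x lie in the far lower tail, Tmsb10 and Arpc4 just past the lower dashed line, and 6 genes lie between the lines.

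Of the 10 genes, Arpc1b, Arpc4, Tmsb4x and Tmsb10 (4 genes) were lower at E13.5 by 1.5-fold or more, 0 were higher by as much and 6 lay between. Over all 7309 genes that reached 10 CPM in either library, 9.95% were lower by 1.5-fold or more and 8.62% higher, and over the 2884 that reached 50 CPM the shares were 5.86% and 4.68%. The median log2 ratio was -0.13 over the 10 genes and -0.02 over all 7309. The members were picked with these results known, so their count describes them and is no evidence on actin genes at large. Without Tmsb4x, whose level is taken up below, 3 of 9 were lower by 1.5-fold or more. Arpc1b stood at percentile 0.807 of all log2 ratios, Tmsb10 at 5.43, Arpc4 at 6.03 and Arpc1a at 83.2.

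Of the thymosins, Tmsb10 carried nearly all UMIs and was lower at E13.5. Tmsb10, at chr6:72957347-72958748 on the minus strand, had 201 CPM at E13.5 and 364 CPM at E12.5 and was 1.81-fold lower (1.77 to 1.85). After thinning, the median cell had 3 Tmsb10 UMIs at E13.5 and 5 at E12.5, and 93.0% and 98.8% of cells had at least 1. The Tmsb10 level was higher in deeper cells, at 214 CPM in the deepest of 4 bins against 187 CPM in the shallowest at E13.5 and 406 against 312 CPM at E12.5, and every E13.5 bin lay below every E12.5 bin. Of 50-base words in the last 500 bases of its longest transcript, 61.9% also occur in transcripts of other genes, processed pseudogenes among them, so its count is uncertain.

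Tmsb4x, an X-linked gene, was scarce in germ-like cells and far more abundant in other barcodes. Germ-like cells had 2.29 CPM at E13.5 and 10.5 CPM at E12.5, from 134 and 627 UMIs, a 4.59-fold lower level (3.81 to 5.58). After thinning, 3.36% of cells had a UMI at E13.5 and 13.2% at E12.5 (4.97% and 20.5% before thinning). The gene reached 10 CPM at E12.5 alone. Most of its UMIs were outside germ-like cells: these held 30.4% of the Tmsb4x UMIs of the E13.5 table and 31.5% of those of the E12.5 table, but 97.9% and 98.8% of all UMIs. At E12.5, 3 barcodes with macrophage markers held 52.0% of the table's Tmsb4x UMIs, at 44573 CPM. Sertoli-like cells had 379 CPM at E13.5 and 354 CPM at E12.5, and the unnamed cluster of shallow barcodes 479 and 825 CPM. Scaled by the macrophage markers left in germ-like cells, macrophage RNA like that of the 3 barcodes would carry 2.03 CPM at E13.5 and 5.75 CPM at E12.5, or 88.9% and 54.8% of the germ-like level. The E13.5 value rests on 2 macrophage markers, Tyrobp and Fcer1g, as the other 5 were not listed for that library. The E12.5 value rests mainly on Tyrobp, at 1.27 of the 1.64 CPM of these markers. Both values use the same 3 barcodes of the E12.5 library as the source. In the germ-like cells with no UMI of any somatic marker, 401 at E13.5 and 180 at E12.5, Tmsb4x had 1.56 CPM at E13.5 and 9.94 CPM at E12.5, a log2 ratio of -2.67. These values rest on few Tmsb4x UMIs and have no interval. Macrophage markers, at 0.580 CPM at E13.5 and 1.64 CPM at E12.5, are too scarce per cell for this choice to remove macrophage RNA. The part of such RNA in the difference was thus not tested. Its share of the thymosin pair was 1.12% at E13.5 and 2.81% at E12.5.

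The same kind of scaling from Sertoli-like cells gave a small part of the level of the other 9 genes. For Tmsb4x it gave 21.8% of the level at E13.5 and 9.01% at E12.5, apart from the 88.9% and 54.8% scaled from macrophage markers. At E13.5 these scaled values, 0.499 CPM and 2.03 CPM, together exceed the germ-like level of 2.29 CPM. The scaling is thus rough, and how much of the Tmsb4x level was carried RNA was not tested. Sertoli-like cells (25 at E13.5, 4 at E12.5) were rich in Arpc1b, with 853 CPM at E13.5 and 968 CPM at E12.5, and also in Tmsb10, with 836 and 859 CPM. Sertoli markers in germ-like cells set the carried Sertoli RNA at 0.132% of UMIs at E13.5 and 0.267% at E12.5. That amounts to 1.12 CPM of Arpc1b at E13.5 and 2.58 CPM at E12.5, or 2.18% and 1.12% of its level. The other 8 of the 9 genes had a smaller percent of their level carried. Aard alone made up 7.27 of the 12.7 CPM of Sertoli markers at E13.5 and 9.97 of 12.7 CPM at E12.5. The 4 Sertoli-like cells at E12.5 also held 2221 CPM of germ markers, so these percentages are rough. At 2000 UMIs per cell, Arpc1b was found in 8.78% of germ-like cells at E13.5 and 37.7% at E12.5, against 82.8% of the 29 Sertoli-like cells, and Tmsb4x in 0.706% and 2.69%, against 37.9%. In the 401 germ-like cells at E13.5 and 180 at E12.5 with no UMI of any somatic marker, the Arpc1b share was 27.6% and 68.6%. The endothelial list was the somatic list with the highest level, at 46.9 CPM at E13.5 and 112 CPM at E12.5. Of its 8 markers, 2 (Tie1 and Emcn) were listed for neither library. It was led by Pecam1, at 25.6 and 77.3 CPM, which mouse primordial germ cells also express. No cluster was endothelial-like, so its carried RNA could not be scaled and its part in the levels was not tested.

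Neighbouring genes bear on Arpc1b and Arpc4. The 3' end of Arpc1b overlaps that of Pdap1 on the other strand over 1937 bases, and the sources used here do not give whether counting used the strand. Pdap1 itself had 368 CPM at E13.5 and 425 CPM at E12.5, a ratio of 0.865 against 0.223 for Arpc1b. The 3' end of Arpc4 overlaps Ttll3 on the same strand over 1189 bases. The remaining genes lie at chr1:74236084-74268209 (Arpc2, plus strand), chr5:122391878-122414184 (Arpc3, plus strand), chr6:113378115-113390448 (Arpc4, plus strand), chr1:152766542-152775597 (Arpc5, plus strand) and chrX:167207093-167209315 (Tmsb4x, minus strand).

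**Figure D5:**
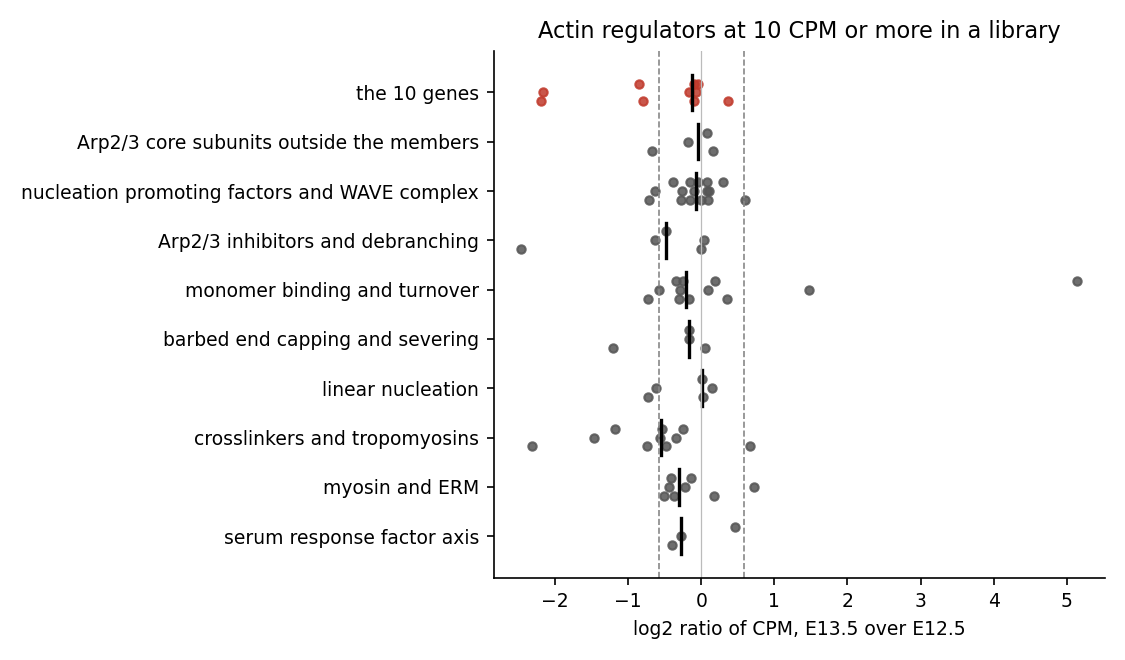
Log2 ratio of CPM, E13.5 over E12.5 (x), of each gene that reached 10 CPM, for the 10 genes (red) and 9 lists of other actin genes (grey). Black bars are medians and dashed lines 1.5-fold. Gmfg and Fscn1 lie at the low end and Tmsb15b1 at the high end, and most genes lie between the dashed lines.

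Among other genes of actin dynamics, taken from lists of 103 genes of which 101 were in the tables and 67 reached 10 CPM, 13 were at least 1.5-fold lower at E13.5 (19.4%), 5 at least 1.5-fold higher (7.46%) and 49 between. Over all 7309 genes the shares were 9.95% lower and 8.62% higher, so the share of higher list genes was near that of all genes. The lists, too, were chosen with earlier results of these data known, so these counts are a description. Carried somatic RNA was not scaled for the list genes. The median log2 ratio of the 67 was -0.23, and 6 of the 18 past the fold were under 10 CPM in the other library. Of the 4 further Arp2/3 subunits, Actr2, which encodes Arp2 itself, was 1.59-fold lower, with 19.7 CPM at E13.5 and 31.3 CPM at E12.5, while Actr3, which encodes Arp3, had 127 CPM at E13.5 and 120.3 CPM at E12.5. Actr3 held 90.2% of the UMIs of the pair with its paralog Actr3b at E13.5 and 90.6% at E12.5.

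The next list joins activators of the complex with their partners, small GTPases and WAVE complex subunits. Of its 16 genes that reached 10 CPM, 13 lay between the limits, a share near the 81.4% of all genes. Cdc42, a small GTPase, had 191 CPM at E13.5 and 205 CPM at E12.5. Whamm was 1.65-fold lower, with 13.6 CPM at E13.5 and 22.5 CPM at E12.5, and Wasf3 was 1.55-fold lower. Wash1, an activator on endosomes, had 47.4 CPM at E13.5 and 31.5 CPM at E12.5. Of 5 inhibitors and debranching factors, Gmfg, which encodes glia maturation factor gamma, a debrancher of Arp2/3 filaments, was 5.51-fold lower (4.64 to 6.58), with 2.65 CPM at E13.5 and 14.6 CPM at E12.5. Coro1c was 1.55-fold lower, with 42.0 CPM at E13.5 and 64.9 CPM at E12.5, and Coro1b had 46.3 and 45.0 CPM.

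Of 12 genes of monomer binding and filament turnover, Pfn1, the main profilin, had 699 CPM at E13.5 and 891 CPM at E12.5, while its paralog Pfn2 was 2.77-fold higher (2.55 to 3.01), with 34.8 and 12.6 CPM. Tmsb15b1, a further thymosin, had 10.6 CPM at E13.5 and 0.302 CPM at E12.5, from 624 and 18 UMIs, a ratio of 35.3 (22.2 to 60.0). It has near copies, Tmsb15b2 (2.90 CPM at E13.5 and 2.87 CPM at E12.5) and Tmsb15l (1.66 and 3.74 CPM), so the split of reads among them is uncertain. Tmsb15b1 at E13.5 was above Tmsb4x and far below Tmsb10. Limk2, a kinase that inactivates cofilin, had 9.78 CPM at E13.5 and 16.2 CPM at E12.5.

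Counts in the lists of capping, bundling, unbranched filaments and myosins rest on 4 to 10 genes each and are given beside the 9.95% lower and 8.62% higher of all genes as a description. Fscn1, a bundling protein of filopodia, was 4.97-fold lower (4.50 to 5.50), with 8.02 CPM at E13.5 and 39.9 CPM at E12.5. Capg, a barbed-end capper, was 2.31-fold lower, with 15.3 CPM at E13.5 and 35.4 CPM at E12.5, whereas Capzb and Capza1 lay between the limits. Of 10 crosslinkers and tropomyosins, 4 were at least 1.5-fold lower, among them Fscn1, Tagln2 and Cnn2, and Flna at least 1.5-fold higher. Tpm3, the most abundant of them, had 132 CPM at E13.5 and 157 CPM at E12.5. Of 5 nucleators of unbranched filaments, the formins Diaph1 and Diaph3 were at least 1.5-fold lower, and Daam1 had 16.7 and 15.1 CPM. Of 8 myosin and membrane linker genes, 0 were at least 1.5-fold lower and 1, Msn, was at least 1.5-fold higher. Msn, which encodes moesin, had 36.4 CPM at E13.5 and 22.1 CPM at E12.5, Ezr had 23.9 and 34.0 CPM, and Myl12a 368 and 404 CPM. Of the 3 measured genes of the serum response factor axis, Mkl2 had 21.8 CPM at E13.5 and 15.9 CPM at E12.5 and Vcl 8.21 and 10.9 CPM, and 0 passed the limits.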

How the data were processed

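The authors deposited raw UMI counts, 1 table of genes by barcodes per library. The submitters' processing notes name Cell Ranger, without a version, and mm10 (GRCm38), while the sources used here give neither the annotation nor the strand setting. The smallest barcode held 201 genes. The tables share 24 barcode sequences, 9 of them germ-like in both.

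A barcode was kept if it had 500 genes and under 10% of its UMIs from mitochondrial genes. At E13.5, 231 barcodes had too few genes and a further 91 too many mitochondrial UMIs, and at E12.5, 181 and 45. Log-normalised counts (to 10000 UMIs) of both libraries were clustered in scanpy 1.11.5 with leidenalg 0.10.2, on 2000 variable genes, 30 principal components and 15 neighbours at resolution 0.5. Marker lists named the clusters, except 1 of low depth (90 barcodes at E13.5, 116 at E12.5). From germ-like clusters, 1 barcode at E13.5 (erythroid) and 3 at E12.5 (macrophage) were removed because those markers took 0.5% or more of their UMIs, a limit set after the data were seen. Scrublet's 27 doublet calls at E13.5 and 65 at E12.5 stayed in.

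CPM were computed from summed germ-like cells. Intervals are exact conditional binomial for ratios, exact Poisson for levels, exact binomial for shares (scipy 1.17.1) and Newcombe for differences of shares. A class of 1.5-fold stands in for a test, and a ratio needed 3 UMIs in each library. Thinning was without replacement, and 231 cells at E13.5 and 173 at E12.5 were too shallow for 14500 UMIs. The ratio intervals and the class of 1.5-fold were checked on simulated counts with counting error alone. That check held no variation between libraries or cells and no carried RNA, so it does not bear on the comparison of stages.

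The 10 genes and the lists were chosen with earlier results of these data known. Named genes were the 10, the most abundant gene and the highest and lowest ratio of each list, and the 5 genes most like Arpc1b and Arpc1a. Further list genes past the fold, Pdap1, Nanos2, Mki67 and the copies of Tmsb15b1 were named after their values were seen. RefSeq (GRCm38.p6) gave promoter windows for 9 of the 10 genes, and GENCODE the overlaps. Actg2 and Scin were not analysed here, and 1 list gene past the fold is not reported here by name. Alternatives were TMM scaling (edgeR 4.0.16), dropping the mitochondrial, ribosomal protein, member and 50 most abundant genes from the denominator, summing all barcodes, a stricter cell filter (2000 genes, 5% mitochondrial), removal of Scrublet calls, equal weight for each cell, resolution 1.0, choosing cells by 3 germ markers, cells with no somatic-marker UMI, thinned cells, other minimum levels and thinning depths, and 2 added after the data were seen, with the removed barcodes kept and without the cluster led by Tmsb4x.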

Additional observations from a re-analysis of the deposited data

How the results depend on the processing

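Across 12 alternatives the 4 genes at least 1.5-fold lower stayed in that class, 0 were higher, and each of the 10 kept its class of size. The log2 ratio of Arpc1b was -2.22 to -2.07, that of Arpc4 -0.86 to -0.71, that of Tmsb10 -0.86 to -0.73 and that of Arpc1a 0.28 to 0.40. The log2 ratio of Arpc3 was 0.06 with no UMI of any somatic marker, the sole change of sign. The difference in the Arpc1b share was -39.7 percentage points over all barcodes and -39.2 with the stricter cell filter, which kept 1595 cells at E13.5 and 2270 at E12.5. The difference in the Tmsb4x share was -4.80 over all barcodes, -2.27 with no UMI of any somatic marker and -5.98 with the 4 left-out barcodes kept, where the Tmsb4x log2 ratio was -3.59. Over all genes, 5.86% were lower and 4.68% higher at 50 CPM or more, and 17.5% and 18.5% with no minimum level. With the denominator lacking the most abundant genes, 12 list genes in place of 13 were lower. Thinning moved shares of cells with a UMI but not which library was higher for Arpc1b (8.78% at E13.5 and 37.7% at E12.5 at 2000 UMIs). No paired analysis was possible because each stage has 1 library. Depth limits Tmsb4x most, with 134 UMIs at E13.5, and a single library per stage limits every comparison.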
